A study of Mus musculus with 2 samples.

Results

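The Notch pathway genes examined here were 4 receptors (Notch1, Notch2, Notch3 and Notch4), 3 membrane-bound ligands (Dll1, Jag1 and Jag2), the DNA-binding effector Rbpj and 2 target genes (Hes1 and Hey1). These 10 genes were taken from a list of names, drawn up with earlier results of these data known, and all of them had a row among the 47069 genes of the count table. The genes tested were the 16504 whose mean over both libraries reached 1 CPM (counts per 1000000 counts in the library), and all 10 were among them. Transcripts were measured by bulk RNA-seq of poly(A) RNA from 2 samples of mouse pituitary cells. The pituitaries came from randomly cycling female C57BL/6 mice, 10 to 12 weeks old, with no genetic change or drug named for either group. The methods of the paper describe a pituitary cell sample as 5 pooled pituitaries with 500000 to 700000 cells. They do not repeat these numbers for the bulk samples. Collagenase and then pancreatine freed the cells from the glands, and they went at once into RNA-Best, a stabilization buffer designed to keep single cells intact, or into RNAlater, an RNA stabilizer that does not. The comparison asked whether transcript levels after storage in RNA-Best matched those after storage in the established reagent.

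Each stabilizer had 1 library, so no difference given here has a replicate check, no p-value was computed, and the stabilizer, the pool of animals and the library preparation cannot be told apart. The RNA-Best library held 53915047 counts and the RNAlater library 44917492. The intervals printed beside levels and ratios are 95% intervals that cover counting error only. Prl and Gh, which encode prolactin and growth hormone, together took 29.7% of all counts after RNA-Best and 23.2% after RNAlater, and the 7 hormone genes that define the endocrine pituitary were abundant in both libraries. In bulk samples, fewer cells of a type and less RNA per cell cannot be told apart.

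Notch signaling passes between touching cells. A Delta-like or Jagged ligand on one cell pulls on a Notch receptor on its neighbor, proteases including gamma-secretase then free the intracellular part of the receptor, and this part enters the nucleus, where it joins the DNA-binding protein RBPJ and Mastermind coactivators and switches on genes of the Hes and Hey families. The products of those genes are repressors that hold back differentiation. In the pituitary the pathway is known for keeping progenitor cells undifferentiated, and in most tissues it also acts in blood vessels, between endothelial cells and the pericytes and smooth muscle around them.

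All 10 Notch genes had a lower level in the RNA-Best library than in the RNAlater library. The 4 receptors differed most, with folds from 2.33 to 3.69, the 3 ligands by 1.63-fold to 2.20-fold, Rbpj by 1.60-fold, and the targets Hes1 and Hey1 by 1.36-fold and 1.33-fold. Of all genes tested, 67.0% were lower in RNA-Best, so most genes shared the direction. The median log2 ratio of RNA-Best to RNAlater, computed on CPM plus 0.5, was -0.91 over the 10 genes and -0.18 over all genes tested. The 10 ratios all lay below the median of all genes, where by construction 50.0% of the genes lie.

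**Figure D1:**
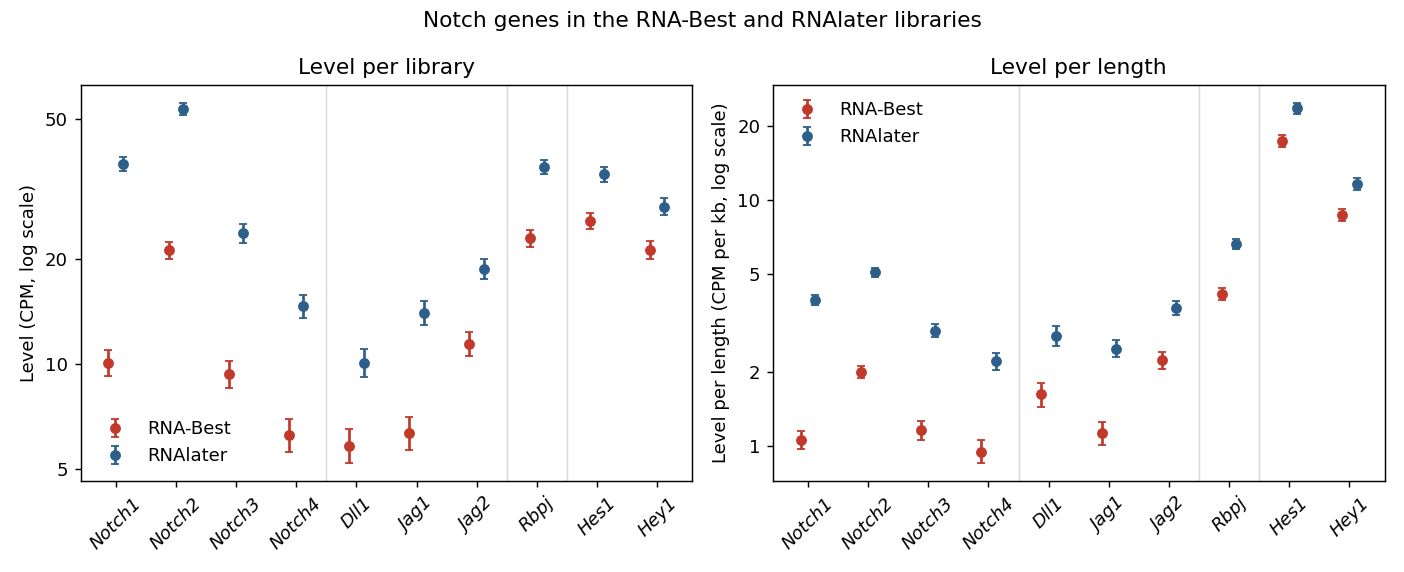
Levels of the 10 Notch genes in the RNA-Best (red) and RNAlater (blue) libraries, 1 point for each library, with 95% counting intervals as bars. The left panel gives CPM and the right panel CPM per kb of the longest annotated transcript, both on a log scale, and vertical lines part receptors, ligands, Rbpj and targets. Every red point lies below its blue partner, most widely for Notch1 (10.1 against 37.3 CPM).

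The regulatory sequence at the start of a gene is shown for Rbpj, whose product binds the core letters TGGGAA, and for Notch1, the gene with the widest difference. RefSeq windows on GRCm38.p6, reaching from 250 bases before to 50 bases after the transcription start, were found for 8 of the 10 genes; Hes1 and Hey1 had no window in the table used. The letters TGGGAA were looked for on both strands, as were the E-box CACGTG and the N-box CACNAG, a pair of motifs bound by proteins of the Hes and Hey families. No match overlapped one of another of these 3 motifs in the windows of the 8 genes. The 250 bases before the start are printed with motif matches in capitals, the RBPJ core in Rbpj (chr5:53590096-53590345, plus strand) and the N-box in Notch1 (chr2:26503823-26504072, minus strand).
Rbpj: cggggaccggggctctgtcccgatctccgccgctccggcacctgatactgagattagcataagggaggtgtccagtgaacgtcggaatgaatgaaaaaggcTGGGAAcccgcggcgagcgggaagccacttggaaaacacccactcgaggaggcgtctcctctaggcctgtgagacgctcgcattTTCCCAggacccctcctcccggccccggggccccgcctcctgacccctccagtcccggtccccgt
Notch1: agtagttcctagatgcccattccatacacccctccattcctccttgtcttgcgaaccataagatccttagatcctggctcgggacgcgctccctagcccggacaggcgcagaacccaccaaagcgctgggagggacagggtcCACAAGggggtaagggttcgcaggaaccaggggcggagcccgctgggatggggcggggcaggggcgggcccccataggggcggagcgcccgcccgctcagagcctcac

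This Rbpj window held 2 matches to the RBPJ core, 1 on each strand, and the window of another listed Rbpj start held 1 of them again. No other gene of the 8 held the core. Among all 32851 RefSeq windows, 25.6% held the core. Notch1 had 3 N-box matches, of which 1 is printed, and the other 2 overlapped each other across the start. The N-box was found in the windows of 4 genes (Notch1, Notch2, Notch3 and Dll1) and in 42.5% of all windows, and the E-box in none of the 8 genes and in 7.15% of all windows. These matches are descriptions of the letters in the windows and were not tied to binding.

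Among the receptors, Notch1 is the one with the best-known part in stem cells and in arteries. Notch1 (ENSMUSG00000026923.15, GRCm38 chr2:26457903-26516663, minus strand) was counted 544 times in RNA-Best and 1674 times in RNAlater. Its level was 10.1 CPM in RNA-Best (interval 9.26 to 11.0) against 37.3 CPM in RNAlater (35.5 to 39.1), so that it was 3.69-fold lower in RNA-Best (3.35 to 4.08). The 2 intervals lie far apart, and of the 16504 genes tested only 22 had a lower log2 ratio than the -1.83 of Notch1.

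Notch2, the receptor with the highest level of the 4 in both libraries, is encoded on chr3:98013527-98150361 (ENSMUSG00000027878.11, plus strand). Its level was 21.1 CPM in RNA-Best (19.9 to 22.4) against 53.5 CPM in RNAlater (51.4 to 55.7), 2.53-fold lower (2.36 to 2.72; log2 ratio -1.32). Notch3 (ENSMUSG00000038146.7, chr17:32120820-32166852, minus strand), a receptor of pericytes and vascular smooth muscle, had 9.33 CPM in RNA-Best (8.53 to 10.2) against 23.6 CPM in RNAlater (22.2 to 25.1). That is also 2.53-fold lower (2.27 to 2.82; log2 ratio -1.30), so Notch2 and Notch3 differed alike within counting error although their levels did not.

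Notch4 (ENSMUSG00000015468.14, chr17:34564268-34588503, plus strand), a receptor mostly found in endothelial cells, was the least abundant receptor. It had 6.27 CPM in RNA-Best (5.62 to 6.97) against 14.6 CPM in RNAlater (13.5 to 15.8), 2.33-fold lower (2.04 to 2.66; log2 ratio -1.16). Summed over the 4 receptors, the level was 46.8 CPM against 129 CPM, 2.76-fold lower (2.63 to 2.89). Within the receptor counts the share of Notch1 was 21.6% in RNA-Best (20.0% to 23.2%, exact binomial interval) against 28.9% in RNAlater (27.7% to 30.1%), while Notch2 took 45.1% and 41.5%, Notch3 19.9% and 18.3%, and Notch4 13.4% and 11.3%. The receptor mix therefore held less Notch1 in RNA-Best, by more than counting error.

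Each ligand was lower by a smaller fold than each receptor, but the interval of Jag1 overlaps those of Notch2, Notch3 and Notch4. Dll1 (ENSMUSG00000014773.13, chr17:15367354-15376872, minus strand), a Delta-like ligand, had 5.82 CPM in RNA-Best (5.20 to 6.51) against 10.1 CPM in RNAlater (9.18 to 11.1), 1.73-fold lower (1.5 to 2.01; log2 ratio -0.74). Jag1 (ENSMUSG00000027276.7, chr2:137081456-137116644, minus strand), the Jagged ligand with a main part in vessels, had 6.34 CPM (5.69 to 7.05) and 14.0 CPM (12.9 to 15.1), 2.20-fold lower (1.93 to 2.52; log2 ratio -1.08). Jag1 was thus the 1 ligand beyond 2-fold, but its interval reached below 2-fold.

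Jag2 (ENSMUSG00000002799.5, chr12:112907819-112929776, minus strand), the other Jagged ligand, was the most abundant of the 3 in both libraries. Its level was 11.4 CPM in RNA-Best (10.5 to 12.4) against 18.7 CPM in RNAlater (17.4 to 20.0), 1.63-fold lower (1.47 to 1.82; log2 ratio -0.69). The intervals of Jag1 and Jag2 for the fold do not overlap, and the share of Jag1 within the ligand counts was 26.9% in RNA-Best (24.5% to 29.4%) against 32.7% in RNAlater (30.6% to 34.9%). The ligand sum was 23.6 CPM against 42.7 CPM, 1.81-fold lower (1.69 to 1.95).

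Rbpj (ENSMUSG00000039191.12, chr5:53466152-53657362, plus strand) encodes the DNA-binding protein that all 4 receptors act through. Its level was 22.9 CPM in RNA-Best (21.6 to 24.2) against 36.5 CPM in RNAlater (34.8 to 38.3), 1.60-fold lower (1.48 to 1.72; log2 ratio -0.66). Rbpj was the 1 gene of the 10 with a fractional count (1233.33 in RNA-Best), and its processed pseudogene Rbpj-ps3 was given 250.83 and 339.83 counts, so reads can be divided between near-identical copies. Adding Rbpj-ps1 and Rbpj-ps3 to Rbpj gave 27.7 CPM against 44.2 CPM and the same fold of 1.60.

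The targets stood closest to equal levels. Hes1 (ENSMUSG00000022528.7, chr16:30064384-30067796, plus strand), a repressor that keeps progenitors from differentiating, had 25.6 CPM in RNA-Best (24.3 to 27.0) against 34.8 CPM in RNAlater (33.1 to 36.5), 1.36-fold lower (1.26 to 1.46; log2 ratio -0.43). Hey1 (ENSMUSG00000040289.8, chr3:8663359-8667256, minus strand), a related repressor with a known part in vessels, had 21.2 CPM (20.0 to 22.4) and 28.1 CPM (26.6 to 29.7), 1.33-fold lower (1.23 to 1.44; log2 ratio -0.40). The sum of both targets was 46.8 CPM in RNA-Best against 62.9 CPM in RNAlater, 1.34-fold lower (1.27 to 1.42), and this interval does not reach those of the receptor and ligand sums.

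**Figure D2:**
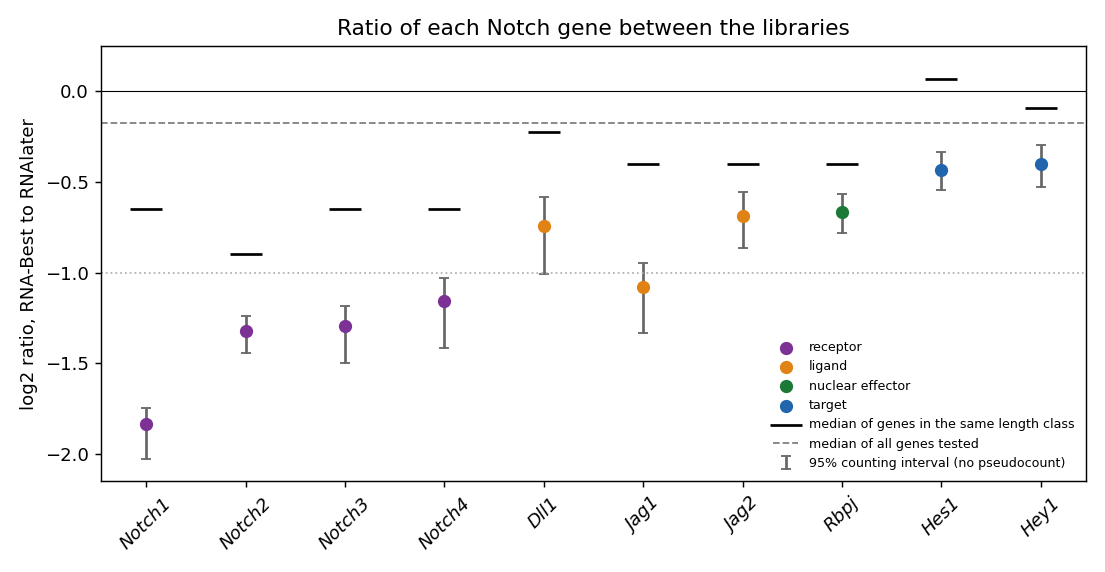
Log2 ratio of RNA-Best to RNAlater for each Notch gene (points, colored by role), with the 95% counting interval of the ratio computed without the pseudocount (gray bars), the median of all genes tested in the same transcript length class (black dashes), the median of all genes tested (dashed line at -0.18) and the 2-fold line (dotted). Ratios run from -1.83 for Notch1 to -0.40 for Hey1, and each point lies below its black dash.

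By the fixed size of 2-fold, 5 of the 10 genes were lower in RNA-Best (the 4 receptors and Jag1), where 4.99% of all genes tested were. With edgeR's TMM factors or DESeq2's size factors in place of library totals this count was 3 (Notch1, Notch2 and Notch3), against 2.65% and 2.56% of all genes, and with totals that left out Prl and Gh it was 4, against 3.47%. The interval of the fold lay wholly beyond 2-fold for 4 of the 10, the receptors (3.45% of all genes). These receptors all have transcripts over 6 kb, a length at which 24.6% of the genes tested were at least 2-fold lower. The interval lay wholly below equal levels for all 10 (51.2% of all genes). All 10 genes were lower under each scaling tried, where the share of all genes that were lower was 51.4% with TMM, 50.4% with DESeq2's factors and 55.5% with totals that left out Prl and Gh. Those scalings moved the median of all genes up by 0.16, 0.17 and 0.12 on the log2 scale.

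Levels of different genes were compared per length, as CPM per kb of the longest annotated transcript. In RNA-Best the order was Hes1 (17.4 CPM per kb), Hey1 (8.73), Rbpj (4.17), Jag2 (2.24), Notch2 (2.01), Dll1 (1.63), Notch3 (1.16), Jag1 (1.13), Notch1 (1.06) and Notch4 (0.951). The neighbors Jag2 and Notch2 did not differ beyond counting error, nor did Notch3 and Jag1, Jag1 and Notch1, or Notch1 and Notch4. In RNAlater the order was Hes1 (23.7 CPM per kb), Hey1 (11.6), Rbpj (6.66), Notch2 (5.10), Notch1 (3.93), Jag2 (3.66), Notch3 (2.95), Dll1 (2.82), Jag1 (2.49) and Notch4 (2.22), with overlapping intervals for Notch1 and Jag2, Notch3 and Dll1, Dll1 and Jag1, and Jag1 and Notch4.

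The top of the order, 2 target genes followed by Rbpj, and its lower end, Notch4, were the same in both libraries, and Notch1 stood at rank 9 in RNA-Best and at rank 5 in RNAlater. The span from Hes1 to Notch4 was 18.3-fold in RNA-Best and 10.7-fold in RNAlater. On the CPM scale the receptor and target sums were both 46.8 in RNA-Best, and the receptor sum was 2.05 times the target sum in RNAlater. Per length, the summed targets were 5.05 times the summed receptors in RNA-Best and 2.49 times in RNAlater.

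The ratios of the Notch genes followed the length of their transcripts. The receptors have the longest transcripts of the 10 (Notch1 9488 bases, Notch2 10500, Notch3 8016 and Notch4 6591), the ligands and Rbpj are intermediate (Dll1 3581, Jag1 5612, Jag2 5106 and Rbpj 5485), and Hes1 (1468) and Hey1 (2423) are the shortest. Across these 10 genes, Spearman's rho between log2 ratio and length was -0.927 and Pearson's r with log10 length was -0.850. Across 16453 genes tested with an annotated length, rho was -0.638. These are correlations across genes of the same 2 libraries, and genes are not independent replicates. The median transcript length was 5548.5 bases for the Notch genes and 3086 bases for all genes, and 8 of the 10 were longer than the median gene.

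**Figure D3:**
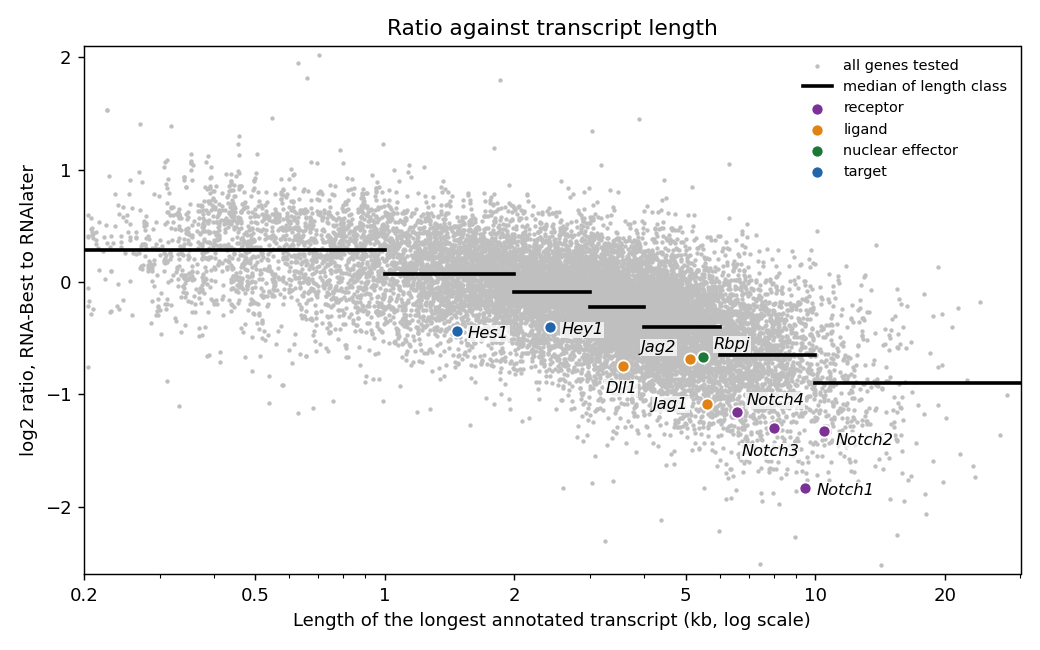
Log2 ratio of RNA-Best to RNAlater against the length of the longest annotated transcript (kb, log scale) for all genes tested (gray), with the median of each length class (black lines) and the 10 Notch genes (colored by role); 112 of 16453 genes lie outside the axes. The class medians step down from 0.29 below 1 kb to -0.90 above 10 kb, and the Notch genes lie below them at every length.

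Set against genes in the same length class, all 10 Notch genes lay below the class median, where 50.0% of all genes lie. Classes ran from 0 to 1, 1 to 2, 2 to 3, 3 to 4, 4 to 6, 6 to 10 and over 10 kb. The difference from the class median was -1.18 for Notch1, -0.42 for Notch2, -0.64 for Notch3 and -0.51 for Notch4. It was -0.52 for Dll1, -0.68 for Jag1, -0.29 for Jag2, -0.27 for Rbpj, -0.50 for Hes1 and -0.31 for Hey1, with a median of -0.50 over the 10. Hes1, among the smaller differences in fold, was as far from its class (median 0.07) as Notch4 was from its own (median -0.65).

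Within its class of 1757 genes, 0.569% had a lower ratio than Notch1. The shares were 3.72% for Jag1, 6.70% for Dll1, 7.07% for Hes1, 7.40% for Notch3 and 11.7% for Notch4. They were 15.6% for Hey1, 18.5% for Notch2, 22.1% for Jag2 and 23.9% for Rbpj. The lowest share was thus that of Notch1, and the order of these shares was not the same once GC was taken into the classes, as given next.

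Base composition was set beside these values. GC content of the longest transcript was 57.1% for Notch1, 53.6% for Notch2, 59.6% for Notch3, 61.2% for Notch4, 54.9% for Dll1, 48.8% for Jag1, 61.9% for Jag2, 43.7% for Rbpj, 50.7% for Hes1 and 52.6% for Hey1, against a median of 49.6% over all genes. Set against genes of the same length class and the same GC quintile, a comparison chosen after the data were seen, the differences were -0.86 for Notch1, -0.12 for Notch2, -0.32 for Notch3 and -0.18 for Notch4. They were -0.46 for Dll1, -0.64 for Jag1, -0.05 for Jag2, -0.45 for Rbpj, -0.50 for Hes1 and -0.28 for Hey1. The receptors and Jag2 came nearer to their matched genes, Rbpj went farther from them, and Jag1, Hes1, Hey1 and Dll1 stayed within 0.1 of their earlier values. Within these groups the share of genes with a lower ratio was 2.53% for Notch1, 3.36% for Jag1, 6.29% for Rbpj, 7.07% for Hes1, 10.5% for Dll1, 17.3% for Hey1, 22.2% for Notch3, 29.5% for Notch2, 31.8% for Notch4 and 43.4% for Jag2. Notch1 kept the lowest share, and Notch4, Notch2 and Jag2 had the highest. The group for Notch2 held 44 genes, the others 198 to 874.

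Overlapping annotation was checked because the strand setting of the counting is not given in the sources used here. Exons of Notch1, Notch2, Notch3 and Dll1 overlap other annotated genes, by 414 bases with Gm13568 and 1068 bases with 0610009E02Rik for Notch1, 541 bases with Gm42820 for Notch2, 488 bases with Gm17276 for Notch3 and 867 bases with A930024N18Rik for Dll1. Gm42820 lies on the same strand as Notch2, so no strand setting would part their reads. The other neighbors lie on the opposite strand. The counts of all these neighbors were low, at most 33 in RNA-Best (0610009E02Rik) and 51 in RNAlater (A930024N18Rik). Reads in the shared bases cannot be told apart, so the levels of these 4 genes are uncertain by the reads that fall there.

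The protein-coding gene nearest to each receptor in log2(CPM + 0.5) over the 2 libraries was found by Euclidean distance. Notch1 was nearest to Mdn1 (9.54 CPM in RNA-Best against 36.7 CPM in RNAlater, distance 0.080), Notch2 to Vps13d (20.8 and 54.2 CPM, 0.026), Notch3 to Nckap5l (9.31 and 23.4 CPM, 0.012) and Notch4 to Pou2f1 (6.18 and 14.7 CPM, 0.024). Of these, Mdn1 (17970 bases), Vps13d (15849 bases) and Pou2f1 (13050 bases) have transcripts longer than those of the receptors they resembled, and Nckap5l (4853 bases) has a shorter one. With 2 libraries, such likeness says only that a level and a ratio were close.

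The rest of the pathway was described with a list of 59 further genes, of which 54 passed the limit of 1 CPM. Of these 54, 47 were lower in RNA-Best and 7 higher, with a median log2 ratio of -0.39, where 67.0% of all genes tested were lower. With TMM or DESeq2's factors the split was 39 lower and 15 higher (51.4% and 50.4% of all genes lower), and without Prl and Gh in the totals it was 41 and 13 (55.5%). Against their length classes, 31 of the 54 lay below the class median, with a median difference of -0.02, where all 10 of the Notch genes did with a median of -0.50. At least 2-fold lower were 5 genes, among them Dll4, Maml2, Ep300 and Spen, where 4.99% of all genes were. Under the 3 other scalings (TMM, DESeq2's factors, and totals without Prl and Gh) Dll4 was at -0.88, -0.86 and -0.93. The count was then 4, where 2.65%, 2.56% and 3.47% of all genes were at least 2-fold lower.

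The other ligands differed among themselves. Dll4, the Delta-like ligand of sprouting vessels, had 12.5 CPM in RNA-Best against 26.2 CPM in RNAlater (log2 ratio -1.04), and Dll3, a ligand that acts mostly inside its own cell, had 1.59 and 1.45 CPM (0.11). Dlk1, a Delta-like protein that pituitary cells make in large amounts, had 1093 CPM and 1132 CPM (-0.05, and above 0 under the 3 other scalings). Dlk2 was under the limit. Dll4 thus went with Jag1, and Dlk1, the most abundant of all the pathway genes, was near equal.

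Genes that modify and cut the receptors were closer to equal than the receptors. Of 5 genes that add sugars to them, 3 were lower (2 under the 3 other scalings), from Rfng (14.2 and 19.6 CPM, log2 ratio -0.45) to Mfng (16.8 and 14.9 CPM, 0.17), both of the Fringe family. Of 10 genes of receptor cleavage, 8 were lower, with a median of -0.28, where 67.0% of all genes were lower. With TMM or DESeq2's factors 6 of the 10 were lower (51.4% and 50.4% of all genes), and the median was -0.11 and -0.10. They ran from Furin, the protease of receptor maturation (43.7 and 66.6 CPM, -0.60), to Aph1a, a subunit of gamma-secretase (47.5 and 36.0 CPM, 0.39). Of 12 genes of ubiquitin ligases and endocytosis all 12 were lower, from Numb, an inhibitor of the receptors (26.1 and 43.0 CPM, -0.71), to Dtx2 of the Deltex family (8.64 and 10.2 CPM, -0.22).

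The nuclear cofactors ran from ratios as low as those of the receptors to equal levels. All 8 coactivators were lower with a median of -0.84 (7 of 8 under the 3 other scalings), from Ep300, a histone acetyltransferase (21.3 and 63.5 CPM, log2 ratio -1.55), to Snw1 (31.1 and 31.2 CPM, -0.00, and above 0 under the 3 other scalings), and Maml2, a Mastermind coactivator, had 4.82 and 11.8 CPM (-1.20). Of 12 corepressors 11 were lower with a median of -0.30 (8 with TMM or DESeq2's factors, 9 without Prl and Gh in the totals), from Spen, which binds RBPJ (14.2 and 47.2 CPM, -1.69), to Cir1 (15.4 and 15.3 CPM, 0.01). Beside these counts, 67.0% of all genes tested were lower. That share was 51.4% with TMM, 50.4% with DESeq2's factors and 55.5% without Prl and Gh in the totals. Split by length, the 11 genes of the wider list with transcripts over 6 kb had a median of -0.92 and 4 of them were at least 2-fold lower, as were 24.6% of all genes tested of that length. The 43 others had a median of -0.27 with 1 at least 2-fold lower, where 2.06% of all genes of at most 6 kb were.

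The other targets were few. Of the 8 listed, 4 passed the limit, and Hes2, Hes3, Hes5 and Hes7 did not. Heyl, the Hey family member of vascular smooth muscle, was lowest (10.5 and 15.2 CPM, log2 ratio -0.51) and Hes6, which opposes Hes1, was highest (40.5 and 31.8 CPM, 0.35). Of these 4 targets, 3 were lower and 1 higher (median -0.28), where 67.0% of all genes tested were lower. Hes6 was thus the 1 above equal, where Hes1 and Hey1 were below.

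**Figure D4:**
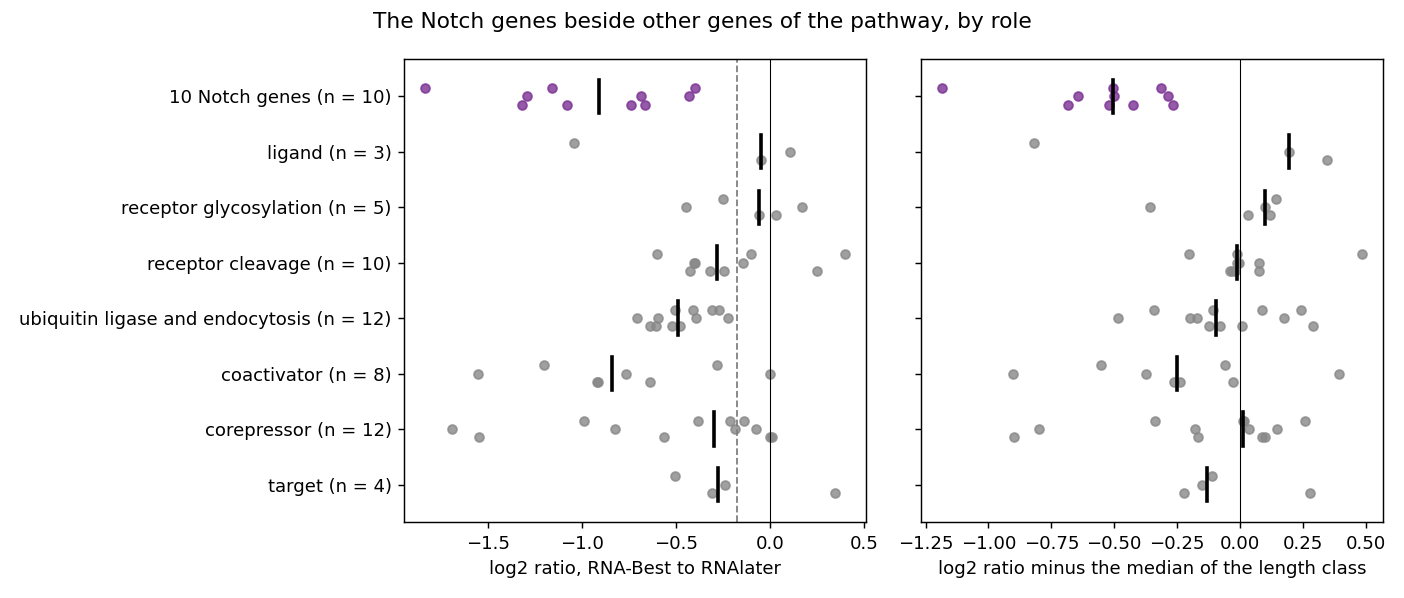
Log2 ratio of RNA-Best to RNAlater (left) and the same minus the median of the gene's length class (right) for the 10 Notch genes (purple) and 54 other pathway genes by role (gray); each point is a gene, black bars are medians, and the dashed line is the median of all genes tested. On the right the 10 Notch genes all lie below 0 with a median of -0.50, and the other roles lie on both sides of it.

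Markers of the cell types in the gland also differed between the libraries, and some of them mark the cells in which Notch genes are known to act. Beside the 67.0% of all genes that were lower, all 10 endothelial markers were lower in RNA-Best (median log2 ratio -1.13, from Kdr, a receptor of vascular endothelial growth factor, at -1.63 to Esam, an adhesion molecule, at -0.10), and their summed level was 443 CPM against 896 CPM. All 10 pericyte and fibroblast markers were lower (median -0.76, from Pdgfra at -1.61 to Col1a2 at -0.18), with sums of 578 and 775 CPM, as were all 8 stem and folliculostellate markers (median -0.56, from Sox9 at -0.92 to Fxyd1 at -0.08), with sums of 255 and 400 CPM. Esam and Fxyd1 were above 0 under the 3 other scalings, and Col1a2 was above 0 with DESeq2's factors.

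Posterior lobe markers were also lower, 6 of 6, where 67.0% of all genes tested were lower. Their median was -0.86, from Nkx2-1 at -1.28 to Rax at -0.31, with sums of 95.2 and 180 CPM. The macrophage markers were split, with 4 of 8 lower (median 0.02, from Csf1r at -0.75 to C1qa at 0.56; sums of 194 and 178 CPM), and none of the 7 hormone genes was lower (median 0.45, from Gh at 0.04 to Tshb at 0.73; sums of 307051 and 239085 CPM). The counts of lower posterior lobe, macrophage and hormone genes were the same under the 3 other scalings. Of all genes, 51.4%, 50.4% and 55.5% were lower under those scalings. No marker was at 0 in either library. Against their length classes, 10 of 10 endothelial, 9 of 10 pericyte and fibroblast, 8 of 8 stem and folliculostellate and 6 of 6 posterior lobe markers lay below the class median, where 50.0% of all genes lie, against 3 of 8 macrophage markers and 2 of 7 hormone genes. The part of these cell types in the lower levels of the Notch genes was not tested.

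**Figure D5:**
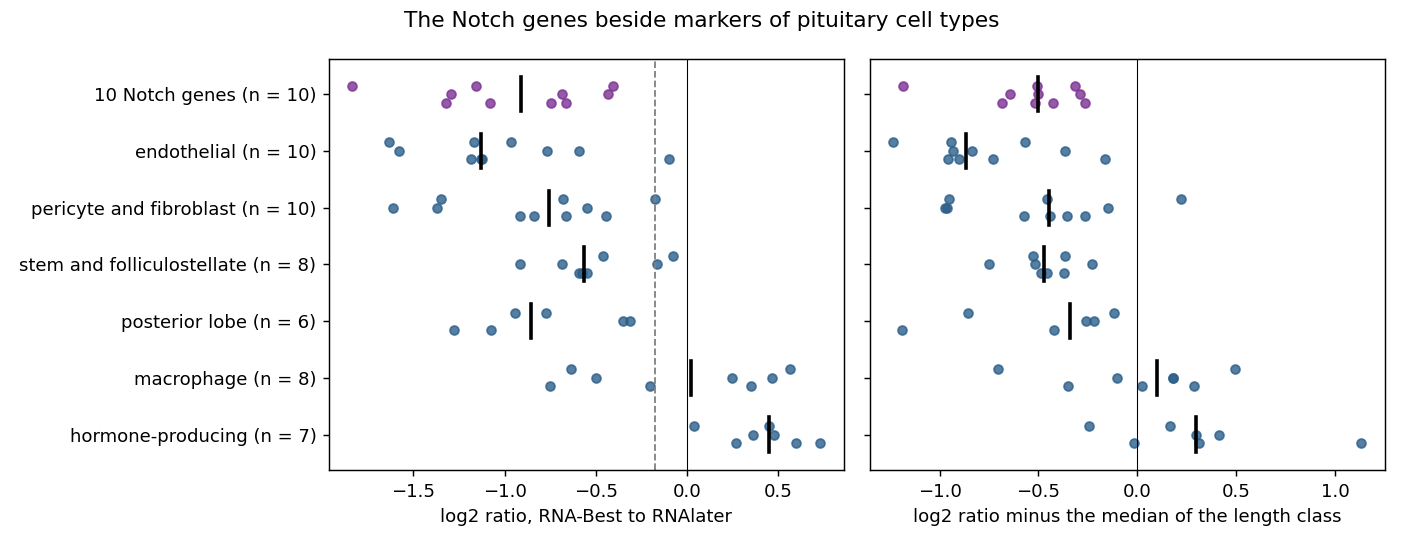
Log2 ratio of RNA-Best to RNAlater (left) and the same minus the median of the gene's length class (right) for the 10 Notch genes (purple) and marker genes of 6 pituitary cell types (blue); each point is a gene, black bars are medians, and the dashed line is the median of all genes tested. On the left the Notch genes run from -1.83 to -0.40. Endothelial, pericyte and fibroblast, stem and posterior lobe markers reach higher, up to -0.10, -0.18, -0.08 and -0.31. Their medians are -1.13, -0.76, -0.56 and -0.86, against -0.91 for the Notch genes. On the right these medians are -0.87, -0.45, -0.47 and -0.34, against -0.50 for the Notch genes. The 7 hormone genes lie above 0 on the left.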

How the data were processed

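Poly(A) RNA of dissociated pituitary cells was sequenced as single reads from TruSeq libraries, 1 for each stabilizer. The authors deposited 1 table of estimated counts per gene, not normalized; per the submitters' processing notes it was made with STAR 2.5.1b, featureCounts 1.5.0-p1 and mm10. Of the values above 0, 35.4% (RNA-Best) and 34.9% (RNAlater) were not whole, so some reads were divided between features. The option and the strand setting are not given in the sources used here. Spike-in controls named in the study's methods were not used here.

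Symbols, coordinates, lengths and GC came from GENCODE M21 on GRCm38, which matched 46574 (98.9%) of 47069 identifiers, and each gene took its longest annotated transcript. Promoter sequences came from RefSeq (GRCm38.p6). Counts were scaled to CPM (counts per 1000000 counts in the library). Log2 ratios used a pseudocount of 0.5 CPM, which understates the ratios of low genes, and a mean of at least 1 CPM. Folds were ratios of CPM from the counts as given, without a pseudocount. Their exact conditional binomial intervals used counts rounded to whole numbers and no pseudocount. Levels had exact Poisson intervals, and shares had Clopper-Pearson intervals (95%). The limit behind a count of 0 was set at 3 counts, 0.0556 CPM (RNA-Best) or 0.0668 CPM (RNAlater). With 1 library per group, no test was run.

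Genes named were the 10 members, the lowest and highest ratio of each role or marker list and those past 2-fold in the wider list, and the nearest gene of each receptor; 1 gene of the wider list is not reported here. The members and lists were chosen with earlier results of these data known. Alternatives were TMM (edgeR 4.0.16), DESeq2 1.42.0 size factors (R 4.3.3), totals without Prl and Gh, pseudocounts of 0.1 and 5 CPM, other filters, equal depth (100 binomial draws) and other length classes. The steps were tested on simulated data in Python 3.11.15 (pandas 2.3.3, scipy 1.17.1, numpy 2.4.6).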

Additional observations from a re-analysis of the deposited data

How the results depend on the processing

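All 10 Notch genes were lower in RNA-Best, and below the median of their length class, under every alternative run. The median over the 10, -0.91 as reported, was -0.75 with TMM, -0.74 with DESeq2 size factors and -0.66 with a pseudocount of 5 CPM. Its difference from all genes, -0.74 as reported, was -0.55 with 5 CPM. The number at least 2-fold lower was 5 as reported, where 4.99% of all genes were. It was 3 with TMM (2.65% of all genes), 3 with DESeq2 (2.56%) and 4 without Prl and Gh in the totals (3.47%). With 5 CPM it was 2, and the share of all genes was not computed for that setting. The median of the wider list, -0.39 as reported, was -0.22 with TMM, -0.20 with DESeq2 and -0.26 without Prl and Gh. Before the pseudocount is added, the scalings shift all genes alike, and once it is added the shifts of low genes differ. A larger pseudocount shrinks the ratios of low genes. For single genes, a move was set against the margin of the counting interval, the distance from its middle to its end. Of 60 ratios of single genes under alternatives, 35 moved by no more than this margin, 25 moved farther and 0 changed sign. A move within the margin can still end outside the interval. Of 80 differences from length classes, 65 moved by no more than the margin, 15 moved farther and 0 changed sign. Classes by median instead of longest transcript gave -1.83 for Notch1, whose median annotated transcript has only 406 bases. That median is also under 1 kb for Notch3 (717 bases), Notch4 (630.5), Dll1 (738), Jag2 (739), Hes1 (529.5) and Hey1 (942). For these genes this alternative does not match the length of the longest transcript, so it says little about length. The length and GC classes, chosen after the data were seen, are given in the report. Thinning RNA-Best to equal depth moved no ratio of a single gene beyond its interval. No paired analysis was possible because there was 1 library for each stabilizer. Depth limits each ratio to its counting interval, and replicate error is unknown.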
